A study of Mus musculus with 32 samples.

Results

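The choice among the transcripts of a gene was compared in mouse germ cells between 12 and 14 days post-partum (dpp), when the late pachytene stage is rare or absent, and 16 and 18 dpp, when late pachytene spermatocytes have formed. The genes compared were those whose transcripts together averaged 3 TPM or more in each group (TPM is a measure of transcript abundance that is scaled by length and to the same total in every mouse) and that had 2 or more transcripts of a mean of 1 TPM or more in either group. They numbered 7453 of the 85539 genes in the transcript table, and 26204 of their transcripts were tested. Each sample was the germ cells of the testes of 1 male C57BL/6J mouse, dissociated from seminiferous tubules and sequenced as poly-A RNA, with 3 such mice for 8 dpp and 5 for every later age (10, 12, 14, 16 and 18 dpp). The earlier group was the 10 mice of 12 and 14 dpp and the later group the 10 mice of 16 and 18 dpp, and the mice of 8 and 10 dpp, which took no part in the choice of genes or in the tests, are given beside them. The study set out to tie RNA levels to the cytological substages of the first meiotic prophase.

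During pachytene the homologous chromosomes are fully paired, crossing over is completed, the sex chromosomes are silenced and the autosomes are transcribed very actively. One gene can give several transcripts through a second promoter, through exons that are kept or skipped, or through a different site of polyadenylation, and such forms can encode different proteins or carry different untranslated ends. The testis is known for an unusually large number of such forms, and for several genes a form made in spermatocytes replaces the one used in other tissues.

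The label was checked against marker genes. All 6 late pachytene markers (Ldhc, Pgk2, Hspa2, Ccna1, Adam3 and Clgn) rose from the earlier to the later group, where 11.9% of all 16562 genes tested changed by at least 2-fold in either direction (limma on log2(TPM + 1), adjusted p under 0.05). Their summed TPM had a lowest, median and highest value of 105, 202 and 323 in the earlier mice and of 1011, 2343 and 5112 in the later mice, and Ldhc, the sperm lactate dehydrogenase, was the most abundant. Every later mouse was above every earlier one. Of the spermatid markers, the protamine gene Prm1 was at 0 in 18 of the 20 mice and Prm2 in 19, with a highest value of 0.77 TPM for Prm1 and 0.57 TPM for Prm2.

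Markers of other cells also moved between the groups, and their part in the results below was not tested. Of all 16562 genes tested, 4650 (28.1%) were higher and 7213 (43.6%) lower at an unadjusted p under 0.05, so small declines were common on this scale, and 99 (0.598%) fell by 2-fold. The number that fell depends on the processing, with 51 under median-of-ratios factors and 215 with a pseudocount of 0.1 TPM, and the median log2 change over all genes was −0.134, or −0.018 with those factors. The summed TPM of 6 early prophase markers, most abundant Sycp3, ran from 547 through a median of 699 to 850 in the earlier mice and from 781 through 1074 to 1261 in the later ones, and 1 of the 6, Spo11, rose by 2-fold, with 5 of the 6 higher at an unadjusted p under 0.05. Of 8 Sertoli cell markers only Amh fell by 2-fold, but all 8 were lower at an unadjusted p under 0.05. Their sum, led by Ctsl, was 3091, 3657 and 3993 in the earlier and 1764, 2608 and 3383 in the later mice. Sertoli cell transcripts were thus abundant at every age, with a lower median at 16 and 18 dpp. None of the 6 spermatogonial, 5 peritubular and 4 endothelial markers reached the 2-fold minimum in limma, though all of them were lower at an unadjusted p under 0.05. The spermatogonial sum, led by Dmrt1, went from 440, 503 and 519 to 233, 338 and 428. The peritubular sum, led by Acta2, was 1097, 1279 and 1880 and then 524, 964 and 1519, and the endothelial sum, led by Cdh5, 62.6, 74.3 and 97.7 and then 33.7, 58.7 and 68.5. These lists thus held a smaller part of the RNA in most later mice. The sums of the 6 Leydig cell markers (170, 274 and 462 against 169, 246 and 472, led by Insl3), the 5 macrophage markers (46.5, 69.3 and 115 against 51.0, 96.6 and 120, led by Lyz2) and the 5 red blood cell markers (198, 281 and 400 against 250, 314 and 436, led by Hbb-bs) overlapped between the groups. In these 3 lists limma gave 0 changed genes, with 1 macrophage gene higher at an unadjusted p under 0.05. The summed TPM of the 6 spermatid markers, led by Spaca1, was 3.50, 5.90 and 7.57 in the earlier and 6.13, 7.55 and 17.0 in the later mice, and only 1 of the 6 was abundant enough to be tested. It did not change by 2-fold, with an unadjusted p under 0.05.

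**Figure D1:**
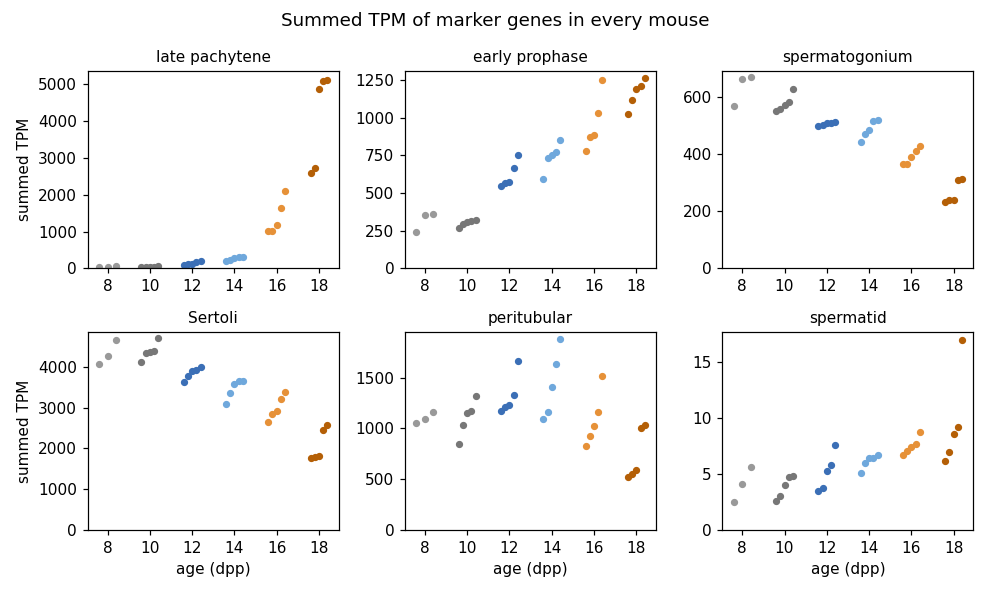
Summed TPM of 6 marker lists (linear axis) in each of the 28 mice, by age in dpp, with 1 point per mouse. The late pachytene list lies between 105 and 323 TPM at 12 and 14 dpp and between 1011 and 5112 TPM at 16 and 18 dpp, while the Sertoli list ends lower than it begins.

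A limited set of genes held a transcript whose share changed by 20 points or more. Of the 26204 transcripts, 281 (1.07%) changed their share of the gene's summed TPM by at least 20 percentage points at an adjusted p under 0.05 (limma, Benjamini-Hochberg), 155 upwards and 126 downwards. They belonged to 183 of the 7453 genes (2.46%), and in 98 of these genes 2 transcripts passed these thresholds, in whichever direction. The shares of the earlier and the later mice did not overlap at all for 111 of the 281, against 230 (0.878%) of all tested transcripts. Without the minimum of 20 points, 1294 transcripts had an adjusted p under 0.05. In these bulk samples, fewer cells that use a transcript and less of that transcript per cell cannot be told apart.

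The TPM of the changed transcripts was set beside their shares. All 155 transcripts whose share rose also had a higher mean TPM in the later mice, with a median across them of 3.16 TPM in the earlier and 22.5 TPM in the later group. Among all changed transcripts, 36 reached the minimum of 1 TPM only in the later group and 10 only in the earlier group. Their direction in TPM was fixed by that minimum, and the medians given here include them. For the 126 transcripts whose share fell the median was 10.6 TPM in both groups. Of these 126, 79 (62.7%) had a lower mean TPM later, near the 60.1% of all 26204 transcripts, and 47 a higher one. On the log2(TPM + 1) scale 13 (10.3%, against 1.70% of all) were lower and 12 (9.52%, against 7.03%) higher by 2-fold or more, so most of the falling transcripts lost share while their own mean level differed by less than that. The summed TPM rose in 84 of the 183 genes (45.9%), with a median log2 change of 0.92, against 427 (5.73%) of all 7453 genes, with a median of −0.15. None of the 183 fell in limma at a 2-fold change, and 8 (4.37%) were lower at an unadjusted p under 0.05, against 3534 (47.4%) of all 7453. Of all 7453 genes, 448 (6.01%) changed in total, 21 of them downwards.

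**Figure D2:**
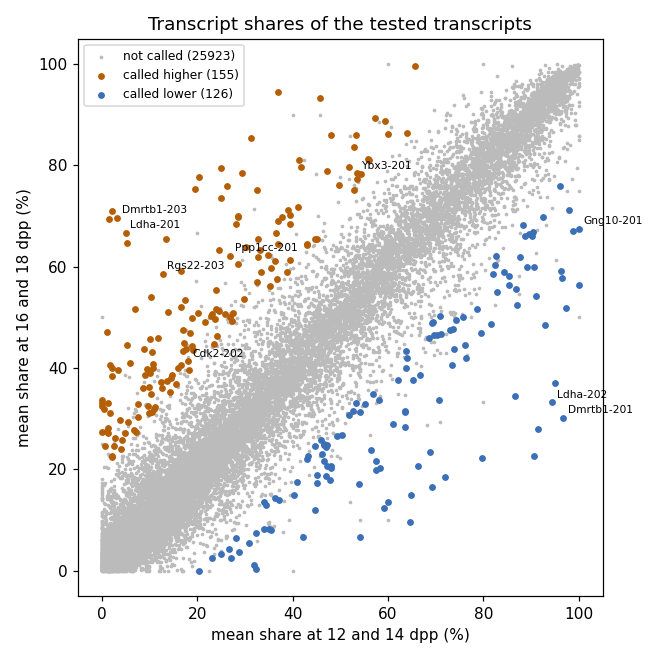
Mean share of each of the 26204 tested transcripts in the summed TPM of its gene (percent) in the 10 mice of 12 and 14 dpp (x axis) and the 10 mice of 16 and 18 dpp (y axis). The 155 transcripts that rose lie above the diagonal, the 126 that fell lie below it and the 25923 others lie around it.

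The main steps came between 14 and 16 dpp and between 16 and 18 dpp, after a smaller one from 12 to 14 dpp. Averaged over the 155 rising transcripts, the share had a lowest, median and highest value among the mice of 18.5%, 20.8% and 21.6% at 12 dpp, of 21.9%, 24.7% and 26.0% at 14 dpp, of 40.9%, 43.5% and 52.0% at 16 dpp and of 53.1%, 65.8% and 66.6% at 18 dpp. From 14 dpp on, each age stood clear of the age before it. At 18 dpp, replicates 4 and 5 stood apart, with averages of 57.5% and 53.1%. Their late pachytene marker sums were 2724 and 2595 TPM, against 4860 to 5112 TPM in the others of that age. Their Sertoli sums were 2576 and 2438 TPM, against 1764 to 1811 TPM. At 16 dpp, replicate 1 had the highest share and late pachytene sum, 52.0% and 2091 TPM. Whether the mix of cells set these shares was not tested. The 126 falling transcripts averaged 63.3%, 65.7% and 68.3% at 12 dpp, 59.1%, 61.6% and 64.8% at 14 dpp, 35.4%, 43.2% and 45.9% at 16 dpp and 19.8%, 22.5% and 33.8% at 18 dpp. The median rising transcript was 2.82 points higher at 14 than at 12 dpp, 18.5 points higher at 16 than at 14 dpp and 16.4 points higher at 18 than at 16 dpp, and the median falling one was lower by 3.18, 18.6 and 16.1 points. The contrast of the earlier with the later ages was part of how the transcripts were chosen, so the mice outside the comparison are the independent ones. At 8 dpp the rising transcripts averaged 19.1%, 19.2% and 19.4% in the 3 mice, and at 10 dpp 17.3%, 18.6% and 21%. The younger mice thus lay nearer to those of 12 and 14 dpp, and 146 of the 155 rising transcripts (94.2%) and 115 of the 126 falling ones (91.3%) were nearer at 8 dpp to the earlier than to the later mean. At 10 dpp these counts were 152 (98.1%) and 121 (96.0%). In the median rising transcript 55.5% of the change from 14 to 18 dpp was already present at 16 dpp, and in the median falling one 58.1%.

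**Figure D3:**
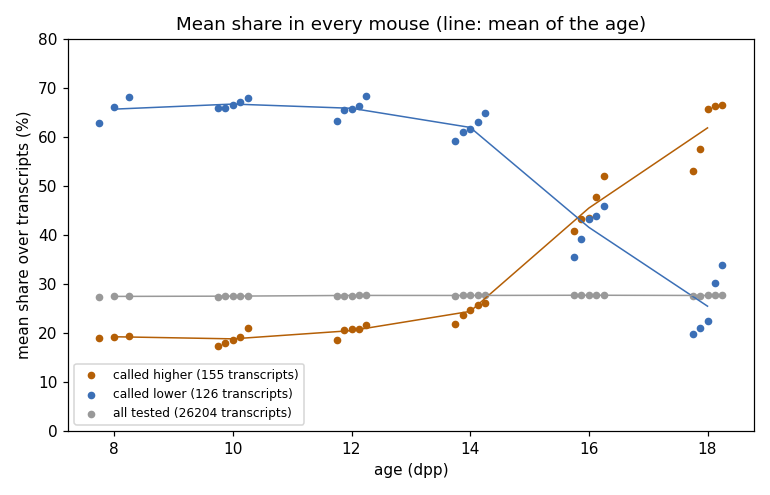
Mean share (percent of the gene's summed TPM) of the 155 rising and the 126 falling transcripts by age in dpp, with 1 point per mouse. The rising set goes from a median of 19.2% at 8 dpp to 24.7% at 14 dpp and the falling set from 66.0% to 61.6%. They meet at 16 dpp, with medians of 43.5% and 43.2%, and lie apart at 18 dpp, with 65.8% and 22.5%.

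Genes of glucose breakdown held one of the largest exchanges. Of the 32 glycolysis genes listed, 17 were compared and 3 (17.6%, against 2.46% of all genes) had a changed transcript, namely Ldha, Pfkp and Hk1. In Ldha and Pfkp the coding region stayed the same in length while the first or last exon changed.

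Ldha encodes the A subunit of lactate dehydrogenase, which turns pyruvate and lactate into each other, and is the somatic relative of the sperm gene Ldhc. Its transcript Ldha-201 starts 1292 bases downstream of Ldha-202 on the chromosome, and both carry 996 coding bases and end at practically the same place. At 12 dpp Ldha-201 held 1.02%, 3.48%, 5.90%, 1.09% and 0.787% of the Ldha TPM in the 5 mice, and at 14 dpp 10.4%, 6.75%, 7.20%, 3.80% and 9.20%. At 16 dpp it held 65.7%, 43.8%, 45.3%, 44.6% and 65.3%, and at 18 dpp 86.9%, 88.4%, 81.4%, 72.9% and 72.8%. All 10 later mice were far above all 10 earlier ones, a change of 61.7 points (SE 5.38, adjusted p = 8.64e-07), and the share of Ldha-202 fell by 61.2 points (adjusted p = 8.64e-07). In TPM the exchange was an addition, since Ldha-202 averaged 112 TPM in the earlier and 123 TPM in the later mice while Ldha-201 went from 5.87 to 358 TPM. The summed TPM of Ldha rose by 1.82 on the log2 scale (adjusted p = 1.78e-06). The sequences before both starts are shown because the forms differ in their start, and whether promoter use or the stability of the RNA set their shares was not tested. They are the 250 bases upstream of the start sites that RefSeq gives on GRCm38.p6, plus strand, at chr7:46846832-46847081 for Ldha-201 and chr7:46845554-46845803 for Ldha-202. The first lies in an intron of Ldha-202 and the second upstream of the gene, and the RefSeq starts were 49 and 35 bases from the GENCODE starts of these transcripts. Capitals mark the only matches, in either strand, to 3 sets of letters: TGACGTCA (a cyclic AMP response element), GTTGCCA (part of an X-box) and TAACNG (a MYB site).

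Ldha-201 upstream: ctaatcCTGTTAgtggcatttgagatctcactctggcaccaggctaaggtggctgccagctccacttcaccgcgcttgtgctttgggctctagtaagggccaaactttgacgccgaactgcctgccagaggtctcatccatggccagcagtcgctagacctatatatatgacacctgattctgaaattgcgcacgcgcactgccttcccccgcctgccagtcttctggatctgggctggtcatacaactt
Ldha-202 upstream: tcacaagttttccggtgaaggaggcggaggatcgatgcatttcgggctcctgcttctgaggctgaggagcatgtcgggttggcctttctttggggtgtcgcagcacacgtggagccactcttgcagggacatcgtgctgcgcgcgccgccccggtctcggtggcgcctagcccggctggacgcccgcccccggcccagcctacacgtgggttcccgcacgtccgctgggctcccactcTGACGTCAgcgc

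The window of Ldha-202 held the cyclic AMP response letters 12 bases before its start, 25 CpG dinucleotides and 67.2% G and C, and that of Ldha-201 held the MYB letters 244 bases before its start, 9 CpG and 54.4% G and C. The part of either match in the change of Ldha was not tested. How common such letters are, in longer promoter sequences, is given with the start sites below. The other named genes searched, each with a changed start near a RefSeq one, were Dmrtb1, Ggnbp1, Bscl2, Cep63, Ulk4, Hagh, Odf2, Csnk2b, Ppp1cc and Tmem175. The only match in their windows was the MYB letters 221 bases before the start of Ggnbp1-202. The share of that start was lower by 34.0 points in the later mice.

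Pfkp encodes the platelet form of phosphofructokinase, the main control point of glycolysis. Pfkp-201 held 0%, 0% and 21.9% of the gene's TPM (lowest, median and highest) in the earlier mice and 28.6%, 65.5% and 89.7% in the later ones, a rise of 59.4 points (adjusted p = 2.27e-05). Pfkp-207 went the other way, from 53.6%, 75.3% and 88.0% to 3.08%, 17.4% and 43.8%. Neither transcript's shares overlapped between the groups. Both carry 2352 coding bases, but the 3′ untranslated region (UTR) of Pfkp-201 has 278 bases and that of Pfkp-207 has 1692. Pfkp as a whole was a minor gene that rose by 2.01 on the log2 scale, from a mean of 7.61 to 44.7 TPM. Hk1 encodes hexokinase 1, which starts glycolysis and has known testis forms with a different first exon. Hk1-202 fell from 27.4%, 47.5% and 59.9% to 5.89%, 25.2% and 42.3%, a change of −22.5 points (adjusted p = 0.0151), and its groups overlapped. With 14 dpp alone as the earlier group the change of Hk1-202 was −18.3 points with an adjusted p of 0.226, which ends the call.

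**Figure D4:**
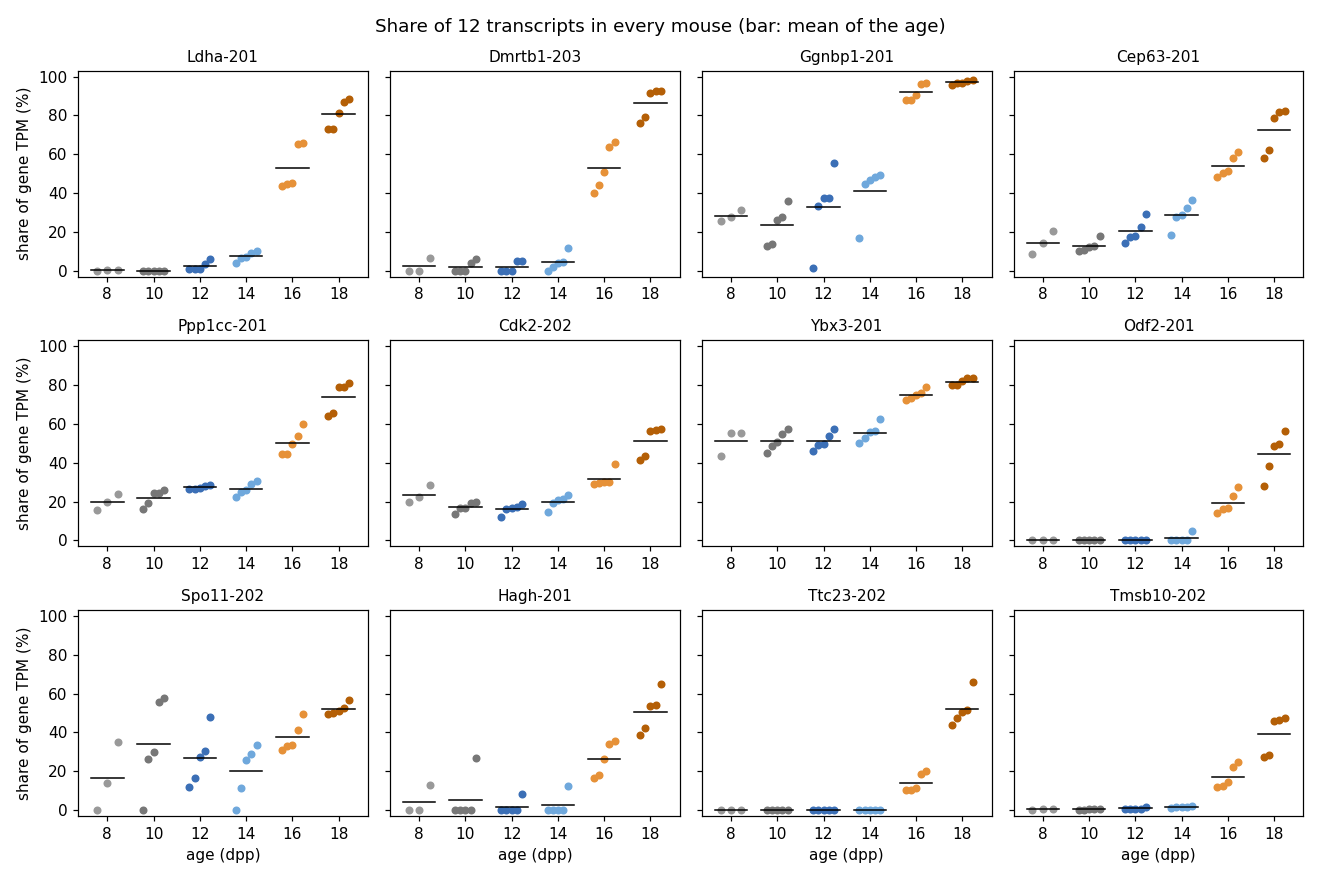
Share of the gene's summed TPM (percent) for 12 named transcripts by age in dpp, with 1 point for each of the 28 mice and a bar at the mean of each age. Ldha-201 stays at or below 10.4% to 14 dpp and lies between 43.8% and 88.4% from 16 dpp, and Ttc23-202 is at 0% in every mouse to 14 dpp and between 10.2% and 65.8% from 16 dpp.

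The largest change of share among the named genes was that of Dmrtb1, a DM-domain transcription factor that acts in spermatogonia at the switch from mitosis to meiosis. Dmrtb1-203 held 0%, 3.05% and 11.9% of the gene's TPM in the earlier mice and 40.0%, 71.2% and 92.8% in the later ones (66.4 points, SE 6.20, adjusted p = 1.81e-06). Dmrtb1-201 held 88.1%, 97.0% and 100% and then 7.22%, 28.8% and 60.0%. The groups were far apart for both transcripts. Dmrtb1-201 itself averaged 61.1 TPM before and 48.8 TPM after, while Dmrtb1-203 went from 2.23 to 220 TPM, and the gene rose by 1.72 on the log2 scale. Dmrtb1-203 begins 650 bases downstream of Dmrtb1-201 and has 609 annotated coding bases in place of 1077. GENCODE marks Dmrtb1-203 as incomplete at its 5′ end, so the full length of its coding region is not known. RefSeq has a start site 9 bases away from the annotated one.

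In Ppp1cc and Cdk2, genes of protein phosphorylation, the forms differed in the coding end or in an internal exon. Among 23 compared cell cycle kinases and phosphatases, of 42 listed, 1 gene (4.35%, against 2.46% of all genes) had a changed transcript, Cdk2. Ppp1cc, from the list of genes with known spermatocyte forms, was 1 of the 3 changed genes of highest TPM.

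Ppp1cc encodes the gamma catalytic subunit of protein phosphatase 1, whose long-tailed splice form is the main one of male germ cells. Ppp1cc-201 held 22.4%, 26.9% and 30.5% in the earlier mice. It held 59.8%, 49.5%, 44.7%, 44.5% and 53.6% in the 5 mice of 16 dpp and 81.1%, 79.1%, 79.0%, 65.8% and 64.0% at 18 dpp. The later mice were all above the earlier ones (35.2 points, SE 4.43, adjusted p = 6.94e-05), and Ppp1cc-202 fell from 60.0%, 63.9% and 66.2% to 15.6%, 30.1% and 49.3% (adjusted p = 4.95e-05). Ppp1cc-201 went from a mean of 94.4 to 378 TPM and Ppp1cc-202 from 223 to 163 TPM, so the 2 forms changed rank. The gene's sum averaged 351 and 576 TPM, a log2 difference of 0.67 that was under the 2-fold minimum. Both transcripts end at the same place, but Ppp1cc-201 has 1011 coding bases and a 3′ UTR of 223 and Ppp1cc-202 has 969 and 1129. The coding ends are shown because they are where the proteins differ. Capitals mark the bases that code only in the transcript named, after 20 shared coding bases in lower case (GRCm38, plus strand, chr5:122174980-122175047 in exon 8 of 8 of Ppp1cc-201 and chr5:122174116-122174141 in exon 7 of 7 of Ppp1cc-202).

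Ppp1cc-201 coding end: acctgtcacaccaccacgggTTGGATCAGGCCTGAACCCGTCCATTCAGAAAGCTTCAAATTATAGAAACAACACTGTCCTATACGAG
Ppp1cc-202 coding end: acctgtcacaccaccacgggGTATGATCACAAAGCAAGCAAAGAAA

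Cdk2 encodes a cyclin-dependent kinase that meiotic prophase requires at the chromosome ends. Cdk2-202 held 11.9%, 18.0% and 23.1% in the earlier and 29.2%, 40.3% and 57.4% in the later mice (23.4 points, SE 3.88, adjusted p = 0.000882). Cdk2-201 held 76.9%, 82.0% and 88.1% and then 42.6%, 59.7% and 70.8%. The groups were separate for both transcripts, although Cdk2-201 stayed the larger form in every mouse of 16 dpp, and against 14 dpp alone its change of −21.6 points had an adjusted p of 0.0512. The sum of Cdk2 was nearly level at 130 and 140 TPM, with Cdk2-202 at 23.4 and then 58.3 TPM. Cdk2-202 carries an extra exon, exon 6 of 8, of 144 bases, which brings the coding region from 894 to 1038 bases. It is shown in capitals between 20 shared coding bases on each side (GRCm38, minus strand, chr10:128699976-128700119).

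Cdk2-202 exon: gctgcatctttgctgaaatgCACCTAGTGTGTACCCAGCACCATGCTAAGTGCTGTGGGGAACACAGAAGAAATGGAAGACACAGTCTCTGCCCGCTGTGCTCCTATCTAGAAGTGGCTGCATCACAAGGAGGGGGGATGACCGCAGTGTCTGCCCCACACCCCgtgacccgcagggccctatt

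Csnk2b encodes the regulatory subunit of casein kinase 2. Csnk2b-201 fell from 84.3%, 91.9% and 97.0% to 22.5%, 57.1% and 81.0% (−36.9 points, adjusted p = 0.00164), and Csnk2b-202 rose from 0%, 1.2% and 3.16% to 12.4%, 26.0% and 44.0% (adjusted p = 0.000233). The groups did not overlap, but against 14 dpp alone the change of Csnk2b-201, −36.2 points, had an adjusted p of 0.0604. Ulk4, a member of the ULK kinase family, lost share from Ulk4-207, which GENCODE lists as non-coding, with 49.6%, 58.9% and 63.1% in the earlier and 5.02%, 22.0% and 31.8% in the later mice (adjusted p = 3.14e-06). The coding transcript Ulk4-209 took its place, from 31.2%, 35.4% and 48.1% to 44.5%, 69.8% and 83.2%, with the lowest later mouse below the highest earlier one. Ralgps2, an exchange factor for Ral GTPases, moved from Ralgps2-201 (76.9%, 88.1% and 91.3%, then 29.7%, 58.0% and 74.9%) to Ralgps2-202 (6.87%, 10.4% and 21.7%, then 25.1%, 40.6% and 69.2%). The groups were again separate, and the end of Ralgps2-202 lies 1356 bases before that of Ralgps2-201. Rgs22, a regulator of G protein signalling, gained Rgs22-203, with 2.42%, 9.57% and 29.3% in the earlier and 30.8%, 57.3% and 84.9% in the later mice (45.8 points, adjusted p = 8.99e-05). It is the form with 3774 coding bases, far longer than in the other tested forms of Rgs22. The summed TPM of Csnk2b, Ralgps2 and Rgs22 did not reach the 2-fold minimum, with log2 changes of 0.93, 0.76 and 0.97.

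Among genes of meiotic recombination and synapsis, 26 of 60 listed were compared and 2 (7.69%, against 2.46% of all genes) had a changed transcript, Spo11 and Psmc3ip. Both act on the DNA breaks of meiosis, Spo11 by making them and Psmc3ip by helping the recombinases to pair the broken strand with its partner. In both genes the exchange came while the summed TPM rose.

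Spo11-202, the form without exon 2, held 0%, 26.6% and 48.2% in the earlier and 30.9%, 49.4% and 56.5% in the later mice (21.4 points, SE 5.12, adjusted p = 0.0172). Spo11-201, the form with exon 2, held 36.9%, 57.4% and 77.2% and then 25.4%, 30.1% and 49.4% (−24.3 points, adjusted p = 0.00286). The groups overlapped for both, and the medians show which form led, Spo11-201 before and Spo11-202 after. In TPM both were higher later, Spo11-201 with means of 8.18 and 12.4 and Spo11-202 with 3.32 and 18.3. Exon 2 of 13 of Spo11-201, 114 bases, is shown in capitals between 20 shared coding bases (GRCm38, plus strand, chr2:172981979-172982092).

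Spo11-201 exon: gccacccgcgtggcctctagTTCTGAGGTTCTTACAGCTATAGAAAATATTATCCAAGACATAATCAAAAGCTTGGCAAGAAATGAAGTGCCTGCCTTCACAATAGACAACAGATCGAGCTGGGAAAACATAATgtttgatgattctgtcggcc

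For Psmc3ip the form that gained was not the coding one. Psmc3ip-202, annotated as keeping an intron, went from 15.6%, 37.2% and 47.5% to 54.0%, 58.6% and 67.8% (25.4 points, adjusted p = 0.000341), and the coding Psmc3ip-201 from 45%, 61.0% and 81.5% to 28.3%, 37.9% and 42.8%. The later mice were separate from the earlier ones for both transcripts. The coding form nevertheless averaged 20.7 TPM before and 35.2 TPM after, because the gene rose by 1.41 on the log2 scale.

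Ybx3 encodes a Y-box protein that binds promoters and stored mRNAs in germ cells. Ybx3-201 held 46.0%, 53.4% and 62.5% in the earlier and 72.2%, 79.3% and 83.4% in the later mice (25 points, SE 2.03, adjusted p = 6.23e-07), and Ybx3-202 held the rest. The spread between mice was small and the groups lay well apart. Both forms were higher later, Ybx3-201 with 51.1 and 501 TPM and Ybx3-202 with 44.2 and 122 TPM, and the gene rose by 2.48 on the log2 scale. The forms differ by exon 6 of 10, whose 207 bases are shown in capitals between 20 shared coding bases (GRCm38, minus strand, chr6:131375974-131376180).

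Ybx3-201 exon: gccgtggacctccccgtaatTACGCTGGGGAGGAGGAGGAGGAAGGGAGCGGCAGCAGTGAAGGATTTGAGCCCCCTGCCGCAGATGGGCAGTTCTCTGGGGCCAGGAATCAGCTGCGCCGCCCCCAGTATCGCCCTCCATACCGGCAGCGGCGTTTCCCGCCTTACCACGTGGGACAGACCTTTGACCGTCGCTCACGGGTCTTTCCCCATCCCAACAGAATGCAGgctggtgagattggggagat

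Further changed transcripts belonged to genes of centrioles, cilia and the sperm tail. Of 67 listed genes 28 were compared, and 6 (21.4%, against 2.46% of all genes) had a changed transcript: Cep63, Cfap43, Dnal1, Ift122, Odf2 and Tekt2. This count includes Cfap43, whose exchange involves a transcript of a neighbouring gene, and Tekt2, whose call was lost in 18 alternatives. The median largest change over the 28 genes was 6.50 points, against 4.19 points over all 7453. Most of them encode parts of the tail or the centrioles that spermatids use later, and the summed TPM of Cep63, Cfap43, Odf2 and Tekt2 rose as well.

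Odf2 encodes a protein of the outer dense fibres of the tail and of the appendages of the mother centriole. Odf2-201 held 0%, 0% and 5.01% in the earlier and 14.3%, 27.7% and 56.4% in the later mice (31.4 points, SE 4.76, adjusted p = 0.000386), and Odf2-204 fell from 16.9%, 26.8% and 34.9% to 0%, 2.00% and 14.4% (adjusted p = 1.61e-05). Both were free of overlap. Odf2-201 went from 0.497 to 171 TPM, which made it a large part of a gene whose sum rose from 90.0 to 418 TPM. It has 1914 coding bases and a 3′ UTR of 105, and Odf2-204 has 2475 and 1084. Cep63, which takes part in the doubling of centrioles, moved from Cep63-206 (57.6%, 71.4% and 80.3%, then 15.9%, 37.6% and 50.2%) to Cep63-201 (14.4%, 25.1% and 36.7%, then 48.5%, 59.7% and 82.4%, adjusted p = 4.67e-05). Every later mouse had more Cep63-201 than any earlier mouse. Cep63-201 carries more coding bases, 2274 against 1614, and a shorter 3′ UTR, 276 against 2266 bases. Lrrcc1, another centrosomal protein gene, gained Lrrcc1-202, with 14.6%, 30.7% and 49.0% and then 53.5%, 65.9% and 76.1% (adjusted p = 0.000125). Lrrcc1-202 ends downstream of Lrrcc1-206, the form that lost most, but has the shorter 3′ UTR, 231 against 2446 bases.

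Cfap43 encodes a protein of the sperm tail axoneme. Cfap43-204 held 8.06%, 14.2% and 28.7% in the earlier and 45.2%, 59.1% and 69.5% in the later mice, with the smallest adjusted p of all transcripts (42.7 points, adjusted p = 2.27e-07). Its counterpart within the same gene of the table, Itprip-201, fell from 52.9%, 66.0% and 90.3% to 13.8%, 18.4% and 35.0%, but GENCODE M21 places that transcript in the neighbouring gene Itprip, so the exchange of Cfap43 is one between 2 genes of that annotation. Tekt2, a tektin of the axoneme, had a very wide spread. Tekt2-202 held 0%, 0% and 90.9% in the earlier and 0%, 91.2% and 94.8% in the later mice (54.5 points, SE 15, adjusted p = 0.0391), so the groups overlapped over the whole range. The change of Tekt2-202 lay between 51.8 and 57.4 points in the 18 alternatives that ended its call. Its adjusted p was 0.0977 with the replicate number as a block and 0.0631 with every transcript of the genes tested. The adjusted p was also above 0.05 with most of the single libraries left out in turn. It was 0.0673, 0.0690 and 0.0696 without 12 dpp replicate 1, 3 and 5, and 0.0677, 0.0705, 0.0692 and 0.0698 without 14 dpp replicate 1, 2, 3 and 7. Leaving out 16 dpp replicate 1, 2, 3 or 5 gave 0.0522, 0.0566, 0.0574 and 0.0602, and leaving out 18 dpp replicate 1, 2, 3, 4 or 5 gave 0.0722, 0.0629, 0.0726, 0.0670 and 0.0645. Ift122, a subunit of the transport particle of cilia, and Dnal1, a dynein light chain, were chosen after their values were seen. Ift122-202 rose from 3.13%, 5.71% and 13.2% to 14.1%, 27.1% and 44.1%, and Dnal1-205, which keeps an intron, from 4.09%, 12.1% and 18.5% to 15%, 32.3% and 45.2%. The groups were separate for Ift122-202 and overlapped for Dnal1-205. Rpgrip1, a partner of the ciliary protein RPGR and outside the list, exchanged forms that GENCODE does not count as coding. Rpgrip1-217, annotated for nonsense-mediated decay, fell from 87.7%, 95.1% and 98.8% to 7.78%, 35.4% and 66.0% (adjusted p = 1.98e-05), and Rpgrip1-209, which keeps an intron, rose from 0%, 0.821% and 4.77% to 19.4%, 42.6% and 57.6% (adjusted p = 2.27e-05). Both changes of Rpgrip1 were without overlap.

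The other genes of large change had varied roles. Ggnbp1 encodes a partner of gametogenetin. Ggnbp1-201 held 1.63%, 41.0% and 55.3% in the earlier and 88.1%, 96.4% and 98.3% in the later mice (57.4 points, adjusted p = 1.13e-06), while the gene went from 12.6 to 312 TPM. The later mice used this form almost alone. Bscl2 encodes seipin, which acts in the formation of lipid droplets. Bscl2-210 rose from 11.6%, 31.2% and 39.5% to 44.2%, 72.8% and 79.8% (40.3 points, adjusted p = 4.12e-05), with no overlap, and starts 3052 bases upstream of Bscl2-201, whose share fell. Hagh encodes glyoxalase 2, which clears a by-product of glycolysis. Hagh-201 rose from 0%, 0% and 12.6% to 16.7%, 37.3% and 64.8% (36.4 points, adjusted p = 0.000162) and starts 177 bases downstream of Hagh-202. With 780 against 927 coding bases, Hagh-201 is the shorter form, and it was absent or rare in the earlier mice and present in every later one. Ttc23, a tetratricopeptide repeat gene, gained a form with another start without a 2-fold change of its total. Ttc23-202 was at 0% in all 10 earlier mice and at 10.2%, 32.1% and 65.8% in the later ones (33.0 points, SE 6.35, adjusted p = 0.00334), beginning 8022 bases downstream of Ttc23-203 with the same 1338 coding bases. The summed TPM of Ttc23 was 24.0 and 28.9, and against 14 dpp alone the adjusted p of Ttc23-202 was 0.0802, with the same change of 33.0 points. Tmem175, a lysosomal potassium channel gene, moved from Tmem175-201 (39.5%, 52.7% and 80.4%, then 13.4%, 24.2% and 37.2%) to Tmem175-202 (0%, 0% and 9.72%, then 13.3%, 25.8% and 44.4%), a form with the same 1497 coding bases and an end 1519 bases nearer. Neither transcript overlapped between the groups. Rab27a, the only changed gene of 45 compared for membrane traffic (2.22%, near the 2.46% of all genes), encodes a GTPase of vesicle docking. Rab27a-202, which keeps an intron, went from 0%, 0% and 13.8% to 0%, 40.9% and 69.5% (37.8 points, adjusted p = 0.00362), overlapping at 0%. Against 14 dpp alone its change was 37.3 points with an adjusted p of 0.0856.

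Changed transcripts were also found in genes of high level whose sum did not change by 2-fold. Eif5a, an elongation factor and the only changed gene of 33 compared for translation (3.03%, near the 2.46% of all genes), averaged 732 and 857 TPM. Eif5a-210 fell from 63.7%, 68.0% and 72.6% to 30.0%, 43.8% and 61.9% (−22.5 points, adjusted p = 0.00156), and against 14 dpp alone its change of −21.6 points had an adjusted p of 0.0614. No single form replaced it, since Eif5a-207 was higher by 12.8 points and Eif5a-209 by 8.39 points, both with the same 462 coding bases and both below the minimum change. Tmsb10 encodes a thymosin that binds actin monomers. Tmsb10-202 rose from 0.540%, 1.44% and 2.22% to 11.8%, 26.1% and 47.4% (26.8 points, adjusted p = 0.000672), from a start 186 bases downstream of Tmsb10-203 and with the same 132 coding bases. In TPM the new form was added to the old, since Tmsb10-203 averaged 357 and 417 TPM and Tmsb10-202 4.77 and 200 TPM.

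The position of the exchange within the gene was examined over all changed genes. In 159 of the 183 genes the transcript of largest gain and that of largest loss were both annotated. They differed in start in 125 (78.6%, against 65.8% of the same pairs drawn from all 6455 annotated genes compared) and in 3′ end in 93 (58.5%, against 66.5%). A different start with a shared end was found in 55 (34.6%, against 20.2%), a different end with a shared start in 23 (14.5%, against 20.9%), both in 70 (44.0%, against 45.7%) and neither in 11 (6.92%, against 13.3%). Starts such as those of Ldha, Dmrtb1, Hagh, Ttc23 and Tmsb10 were thus the more frequent place of change. The new start lay downstream of the old one in 68 of the 125 (54.4%, against 50.4%), and the new end lay upstream in 59 of 93 (63.4%, against 46.2%), which is the direction of Cep63, Pfkp and Ralgps2. Both transcripts were coding in 107 pairs, and the gaining one had fewer coding bases in 31 (29.0%, against 35% of all such pairs), more in 42 (39.3%, against 36%) and the same number in 34 (31.8%, against 29%).

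Summed over transcripts that start within 50 bases of each other, 211 of 15711 groups of starts changed (1.34%), 110 upwards and 101 downwards in 131 genes, and 79 of the 211 did so without overlap, against 165 (1.05%) of all groups tested. For 3′ ends the count was 148 of 17173 groups (0.862%), 82 upwards and 66 downwards in 97 genes, with 62 free of overlap, against 140 (0.815%) of all tested. Starts thus changed in more genes than ends did. A RefSeq promoter was matched to 54 of the 110 rising and 61 of the 101 falling groups of starts, and to 4952 of all 15711. The letters were searched in the whole RefSeq promoter sequence, the 250 bases upstream of the start and further bases after it. These sequences are thus longer than the windows shown for Ldha. Among the matched rising starts 31.5% held the MYB letters, against 16.4% of the falling, 18.6% of all tested and 23.3% of all 32851 promoters in the table. The cyclic AMP response letters were in 1.85% of the rising, 3.28% of the falling, 3.17% of the tested and 1.79% of all promoters, and the X-box letters in 1.85%, 8.20%, 3.88% and 4.38%. Over the same whole sequences the rising, falling and tested starts had similar CpG counts, with medians of 23, 21 and 22, and all promoters a median of 7. These shares describe the letters and are no test of any factor.

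The 3′ UTR became shorter in most genes where its length changed. The length was the mean over the coding transcripts of a gene, weighted by their TPM, and a change needed an adjusted p under 0.05 and at least 1.2-fold. Of 3778 genes 69 changed (1.83%), 58 to a shorter and 11 to a longer UTR, and 22 of the 69 were without overlap, against 38 (1.01%) of all 3778. Without the minimum fold 140 genes were shorter and 64 longer.

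Cage1 shortened from 425, 516 and 808 bases in the earlier to 64.2, 133 and 290 bases in the later mice (log2 −1.96, adjusted p = 1.29e-04). The share of Cage1-202, with a UTR of 1409 bases, fell from 26.5%, 34.5% and 56.3% to 2.04%, 7.05% and 18.5%. Cage1-201, the form of largest gain, has a UTR of 35 bases. It ends downstream of Cage1-202 and has more coding bases, 2547 against 1545. Saxo2, whose protein binds the microtubules of cilia, shortened from 283, 438 and 1504 to 99.6, 154 and 274 bases (log2 −1.59, adjusted p = 0.00122, or 0.0554 with bases on a linear scale). No later mouse had as long a UTR as any earlier one in these 2 genes. Both were low in the earlier mice, with mean summed TPM of 4.76 for Cage1 and 5.18 for Saxo2. The short transcript Saxo2-202 rose from 0%, 50.5% and 80.6% to 74.4%, 85.6% and 90.8% with overlap (adjusted p = 0.0164). Against 14 dpp alone its change was 21.7 points with an adjusted p of 0.0639. On the logit scale the change was 31.0 points with an adjusted p of 0.0849. In Pfkp the weighted length went from 1301, 1692 and 1692 to 328, 574 and 1134 bases (log2 −1.51, adjusted p = 2.29e-04). Lrrcc1 went from 769, 880 and 1334 to 319, 436 and 682 bases, Cep63 from 1492, 1743 and 1948 to 600, 1045 and 1288, and Ppp1cc from 825, 862 and 896 to 369, 519 and 699. All 3 were shorter in every later mouse than in any earlier one. Ppp1cc shows that a shorter UTR need not mean an earlier end, since its transcripts share the end and differ by splicing.

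Ost4, a small subunit of the oligosaccharyltransferase, went the other way, from 469, 514 and 570 to 593, 727 and 837 bases (log2 0.47, adjusted p = 1.61e-04). It was the only lengthening gene without overlap. Ost4-202, with a UTR of 905 bases, rose from 31.1%, 38.2% and 47.1% to 50.6%, 71.9% and 89.2%, replacing Ost4-201 with 272, and both encode the same 111 coding bases. Clgn, a chaperone gene of spermatocytes among the late pachytene markers, was named after its values were seen, and lengthened from 585, 830 and 935 to 858, 1018 and 1193 bases with overlap (log2 0.28, adjusted p = 0.0446).

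**Figure D5:**
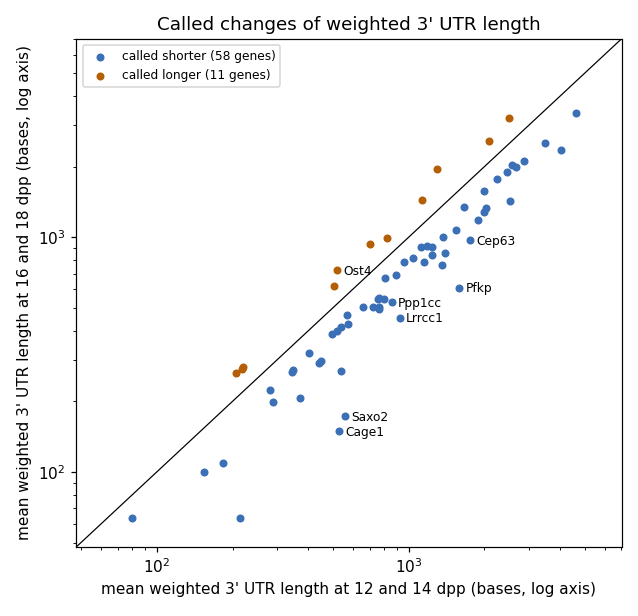
TPM-weighted 3′ UTR length in bases (log axes) of the 69 changed genes, as the mean of the 10 mice of 12 and 14 dpp (x axis) and of the 10 mice of 16 and 18 dpp (y axis). Below the diagonal lie 58 genes with a shorter and above it 11 with a longer UTR in the later mice.

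The share of TPM from coding transcripts changed in 38 of 3870 genes (0.982%), upwards in 18 and downwards in 20, and in 14 without overlap, against 31 (0.801%) of all 3870. Dnhd1, a dynein heavy chain domain gene, went from 23.4%, 46.2% and 77.9% coding to 82.3%, 93.4% and 96.5% (42.4 points, adjusted p = 1.19e-05), and its long form Dnhd1-203, of 14250 coding bases, from 16.3%, 30.4% and 43.6% to 67.6%, 76.2% and 89.9%. Part of the loss within Dnhd1 was in Gm45799-204, which GENCODE M21 gives to another gene. Slc9b1, of the sodium and proton exchanger family, rose from 0%, 36.0% and 52.1% to 60.1%, 68.5% and 81.5% coding (37.3 points), and Ggnbp1 from 57.7%, 72.5% and 84.8% to 94.1%, 98.3% and 99.1% (25.2 points). In these 3 genes every later mouse had a larger coding share than any earlier mouse. Dnhd1 and Slc9b1 were low in the earlier mice, with mean summed TPM of 4.44 and 7.09. Slc9b1-201 supplied the gain of Slc9b1, from 0%, 33.5% and 52.1% to 57.5%, 68.5% and 81.5% (adjusted p = 0.000332).

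Other genes gained a non-coding form instead. Rgs10, a regulator of G protein signalling, dropped from 79.8%, 100% and 100% to 34.6%, 54.5% and 74.7% coding (−45.1 points, adjusted p = 1.85e-06), and its non-coding Rgs10-204 rose from 0%, 0% and 11.0% to 25.3%, 45.5% and 65.4%. Gng10, a G protein gamma subunit, was 100% coding in all earlier mice and 36.0%, 64.8% and 89.3% coding in the later ones (−32.5 points, adjusted p = 0.00121). The gain lay in Gng10-202, and against 14 dpp alone the change of Gng10-201, −32.55 points, had an adjusted p of 0.0536. Lrrc71 dropped from 92.9%, 96.8% and 100% to 41.4%, 62.8% and 90.5% coding (−34.7 points, adjusted p = 6.22e-05), and its intron-keeping Lrrc71-204 rose from 0%, 1.43% and 7.09% to 9.47%, 22.2% and 41.4%. All later mice were below all earlier ones in these 3 genes. The coding form of Rgs10 was not lost, with a mean of 9.55 TPM before and 13.4 TPM after.

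Across all genes the makeup by transcript type differed little between the groups. Over 6812 genes the mean share of coding transcripts was 85.7%, 86.4% and 87.5% in the earlier and 86.4%, 86.8% and 87.3% in the later mice, and that of intron-keeping transcripts 4.08%, 4.97% and 5.50% and then 4.27%, 4.65% and 4.92%. Both pairs of ranges overlapped. Changed transcripts were 205 of 16216 coding ones (1.26%), 18 of 3888 intron-keeping ones (0.463%), 8 of 1706 annotated for nonsense-mediated decay (0.469%) and 11 of 2380 processed transcripts (0.462%). The other changed transcripts were 31 of 1789 without a match in GENCODE M21 (1.73%), 5 of 95 antisense RNAs (5.26%) and 3 of 91 long intergenic RNAs (3.30%), so the share among coding ones was not the highest.

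Of 22 genes listed for known spermatocyte forms, 19 were compared and 6 (31.6%, against 2.46% of all genes) had a changed transcript: Cdk2, Hk1, Odf2, Ppp1cc, Spo11 and Ybx3. The median largest change over the 19 was 13.1 points, against 4.19 points over all genes, and 12 of the 19 (63.2%, against 10.9% of all genes) had a transcript at an adjusted p under 0.05. The list was made of genes with known forms and cannot stand for other genes. In the remaining 13 the transcripts did not reach the thresholds. Dnmt1, the maintenance DNA methyltransferase, had Dnmt1-203 at 0.384%, 1.82% and 4.17% in the earlier and 4.95%, 13.5% and 27.6% in the later mice, without overlap but by only 12.7 points (adjusted p = 0.00106). Nasp, a histone chaperone with a testis form, had Nasp-201 at 57.0%, 58.8% and 63.5% and then 62.7%, 72.1% and 82.0% (13.1 points, adjusted p = 0.000995). Crem, the cyclic AMP response modulator, had Crem-204 at 0%, 0% and 13.0% and then 6.87%, 18.3% and 20.9% (13.3 points, adjusted p = 0.000799), while its total rose by 1.71 on the log2 scale. These 3 were below the minimum of 20 points. The meiotic lamin form Lmna-202 was at 3.28%, 13.1% and 24.5% and then at 2.53%, 28.1% and 59.8%, a difference of 17.8 points with an adjusted p of 0.0862 and wide overlap. For the main forms of Ace, Kit, Gpx4, Mov10l1, Sp1, Sp3, Sun1, Tbp and Lmnb2 the earlier and later ranges overlapped, as in Ace-201 with 61.7%, 68.1% and 71.8% and then 61.0%, 69.3% and 76.5%. This does not make them all unchanged, since some of these genes are among the 12 with a transcript at an adjusted p under 0.05.

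Several lists of regulators held no changed transcript, where 2.46% of all genes had one, a share that in lists of this size amounts to few genes or none. In limma these counts were 0 of 59 chromatin modifiers (31, or 52.5%, with a transcript at an unadjusted p under 0.05), 0 of 58 splicing regulators (37, 63.8%), 0 of 55 ubiquitin genes (24, 43.6%), 0 of 34 kinesin, tubulin and motor genes (12, 35.3%), 0 of 25 genes of the nuclear envelope and telomeres (9, 36.0%), 0 of 16 polyadenylation factors (9, 56.2%) and 0 of 16 germ granule and piRNA genes (9, 56.2%). Over all 7453 genes 2570 (34.5%) had a transcript at an unadjusted p under 0.05. Their median largest changes were 3.76, 3.74, 2.27, 3.77, 2.32, 3.25 and 6.02 points, against 4.19 over all genes. The numbers listed were 75, 71, 76, 66, 43, 29 and 33. The lists do not hold every such factor, and some genes outside them, named after their values were seen, did have changed transcripts. Among these are the spliceosome genes Lsm2 and Snrnp35, the ubiquitin ligase genes Trim13, Rnf123 and Rnf146 and the chromatin gene Ash2l. Of 323 X-linked genes compared, 0 had a changed transcript in limma, against 2.46% of all genes, and 55 (17.0%, against 34.5%) had one at an unadjusted p under 0.05. Without the minimum of 20 points, 814 of the 7453 genes had a transcript at an adjusted p under 0.05, among them 13 chromatin modifiers and 8 splicing regulators.

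The thresholds left close cases on both sides. The gene lowest in TPM that was compared was Dleu2, at 3.00 TPM in its lower group, and a NONCODE gene at 2.999 TPM was just left out. Elovl2-201 changed by −20.0 points and was counted, and Nol4l-202 with 19.9 points was not. Of the 26204 transcripts 21902 reached a mean of 1 TPM in both groups (235 changed), 2039 in the later group only (36 changed) and 2263 in the earlier group only (10 changed), and those of 1 group only had to differ to some degree. With 14 dpp alone as the earlier group 185 transcripts changed in place of 281. The strand of the reads was not given in the sources used here. Tmem175, Psmc3ip, Pfkp, Csnk2b, Odf2, Tekt2, Cep63, Hk1, Ost4, Ulk4, Cage1, Rpgrip1, Lrrc71, Ggnbp1 and Bscl2 overlap another gene on the opposite strand. So do Crem, Tbp, Ace and Sp3, in which no transcript reached the thresholds. Gng10, Lrrc71, Bscl2, Ggnbp1, Dnhd1 and Cfap43 overlap another gene on the same strand. The part of such overlaps in the shares was not tested.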

How the data were processed

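RNA of germ cells from 28 mice was sequenced by the authors in poly-A libraries (paired ends of 100 bases), aligned with Bowtie 1.0.0 to transcripts of Ensembl 75, NONCODE 4 and 214 piRNA precursors, and quantified with RSEM 1.2.8. The deposited values are TPM per transcript, which keep no read counts, so the depth of each sample is unknown and the spread between mice was the only error used. The columns of all 28 mice were mapped by age and mouse number. The authors' gene table, their adult samples and their lists of genes were not used here.

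The share of a transcript is its percentage of the summed TPM of its gene identifier in that mouse. Shares were missing in 31 cases, where the sum was 0. Structures, types and symbols came from GENCODE M21 on GRCm38 by Ensembl identifier, a later release than the one the authors used, and 24327 of the 26204 transcripts (92.8%) matched. NONCODE genes, 500 of the 7453, had no structure. Promoters came from RefSeq (GRCm38.p6). Starts and ends within 50 bases formed 1 group, and 1263 groups of starts and 1842 groups of ends held only transcripts annotated as incomplete there.

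limma 3.58.1 in R 4.3.3, with a prior variance that follows the mean, compared the later with the earlier 10 mice, with Benjamini-Hochberg adjustment over each whole table. A change needed an adjusted p under 0.05 and 20 points of share, 1.2-fold of UTR length (pseudocount 1 base) or 2-fold of log2(summed TPM + 1). Fold changes of low genes are understated by the pseudocount. The method was tested on simulated data. Python 3.11.15, numpy 2.4.6, pandas 2.3.3 and matplotlib 3.10.9 were used.

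Named genes were the 15 of largest change among those with a symbol, at least 10 TPM in both groups and no overlap, with the transcript that moved most the other way. To these were added every compared gene with known spermatocyte forms, up to 3 changed genes of each other list, the 3 largest changes each way of UTR length and coding share without overlap, the 3 changed genes of highest TPM and the 3 of least changed total among the 15. Members and lists were chosen with earlier results of these data known. Alternatives were 14 dpp alone, each library left out, the replicate number as a block, a mean for each age, a covariate for mouse number, 1 prior variance, 10 points, the logit of the share, every transcript, a gene minimum of 10 TPM, other pseudocounts and scalings.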

Additional observations from a re-analysis of the deposited data

Results flagged for a closer look

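In each age group of 5 mice, the shares of 35 named transcripts, 1 for each named gene with a change, were searched for 1 mouse far from the other 4, whose gap to the nearest of them, divided by the range of the 5, was above Dixon's 95% critical value, and 20 of 140 groups held one. By that limit chance gives about 1 in 20. In 8 of the 20 the other 4 mice were all at 0%. Hagh-201 was so at 8.24% in 12 dpp replicate 4 and 12.6% in 14 dpp replicate 6, Rab27a-202 at 8.43% in 12 dpp replicate 4 and 13.8% in 14 dpp replicate 3, Pfkp-201 at 13.8% in 14 dpp replicate 7, Odf2-201 at 5.01% in 14 dpp replicate 3, Rgs10-204 at 11.0% in 12 dpp replicate 3 and Tekt2-202 at 72.1% in 14 dpp replicate 6. Tekt2-202 was also at 0% in 16 dpp replicate 4, against 70.4% to 94.2% in the others of that age, and at 77.5% in 18 dpp replicate 2, against 89.8% to 94.8%. In 14 dpp replicate 2 the share of Rpgrip1-217 was 87.7%, against 92.4% to 94.3%, that of Ggnbp1-201 was 16.9%, against 44.6% to 49.1%, and that of Itprip-201 was 65.7%, against 52.9% to 55.2%. Bscl2-210 held 61.9% in 18 dpp replicate 4, against 74.2% to 78.8%, Tmem175-201 28.2% in 18 dpp replicate 5, against 13.4% to 17.3%, and Tmsb10-202 1.79% in 12 dpp replicate 3, against 0.540% to 0.804%. Dnhd1-203 was at 81.6% in 16 dpp replicate 1, against 67.6% to 70.8%, and at 70.1% in 18 dpp replicate 5, against 88.8% to 89.9%. Cdk2-201 held 60.8% in 16 dpp replicate 1, and the others of that age lay higher, up to 70.8%. Lrrc71-201 held 90.5% in 16 dpp replicate 3, against 61.3% to 69.1%. In 6 of the 20 cases, the 3 of Tekt2-202, both of Rab27a-202 and that of Lrrc71-201, the mouse lay within the range of the other group, and in the others it did not.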

How the results depend on the processing

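With 14 dpp alone as the earlier group, 185 transcripts, 121 groups of starts, 96 groups of ends and 35 UTR lengths changed. Fewer samples entered that test, and the median rising share was already higher at 14 dpp (24.7%) than at 12 dpp (20.8%). The part of each in these counts was not tested. With a minimum of 10 points the counts were 688 transcripts, 472 groups of starts, 421 groups of ends and 110 coding shares, because more changes pass a lower minimum. With a gene minimum of 10 TPM, 186 transcripts and 22 coding shares changed, with fewer genes tested. Of the 38 changed coding shares 47.4% were higher, against 57.7% with 14 dpp alone and 36.4% with the gene minimum of 10 TPM. Leaving out 1 library gave 235 to 331 transcripts, 170 to 243 groups of starts, 120 to 176 groups of ends, 27 to 44 coding shares, 59 to 75 UTR lengths and 1839 to 2091 genes. With the replicate number as a block these counts were 255, 190, 136, 38, 55 and 2083. The numbers did not pair the samples, since mice with the same number deviated together with a mean correlation of 0.00253 in shares (−0.0262 to 0.0416 over 24 pairs, none over 0.1) and of 0.00987 in log2 TPM (−0.339 to 0.354, 4 over 0.1). The median log2 change over all genes was −0.13, and −0.02 with median-of-ratios scaling, which leaves shares as they are.

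Of 1274 values for 45 named results, 1246 kept their direction and side of the threshold, 28 no longer passed it and 0 reversed, and 35 results passed throughout. The others are Tekt2-202, the UTR length of Saxo2 and the 8 that did not pass against 14 dpp alone, and the cause was not tested. Without read counts, shares in genes of low TPM carry a counting error that cannot be given, and a share of 0% may be a transcript below detection.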
